A study of Drosophila melanogaster with 63 samples.

Results

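The change in gene expression between 8 and 10 h after egg laying was examined in whole Drosophila melanogaster embryos mutant for fushi tarazu (ftz). The 3 arrays labelled ftz mutant, 10 h were set against the 3 labelled ftz mutant, 8 h, which are 6 of the 63 arrays of a time course over wild type, ftz mutant and even skipped (eve) mutant embryos. The arrays were chosen by genotype and time in the labels, and no measured value entered the choice of arrays. The comparison itself was chosen with earlier results of these data known. Mutant stocks were kept over balancer chromosomes that carry GFP, and collected embryos were genotyped. The labels name neither the alleles nor the number of embryos in a sample, and they give no other treatment for any group. Each array held sample RNA in Cy3 beside a common reference RNA of embryos aged 0 to 22 h in Cy5. The deposited value is a log2 ratio, most likely of sample over reference, since neither the side nor the base is stated by the labels and the direction rests on genes of known time course. A positive change below therefore means a likely higher level at 10 h.

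Fushi tarazu is a homeodomain transcription factor of the pair-rule class, which sets up alternate segments of the early embryo. It is needed long before the hours compared here, so mutant embryos reach them with missing segments. In normal development these hours follow germ band extension: most cells leave their last embryonic divisions, neuroblasts go on dividing, the trachea and epidermis begin to build a chitinous apical matrix, septate junctions form, and muscle and neurons differentiate. The embryos were whole, so fewer cells of a type and less RNA per cell cannot be told apart. A ratio to a reference has no absolute level, so absence of a tissue could not be read from its markers.

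The table gave 12424 features, 9292 of them named genes. Of these features, 534 (4.3%) differed between 10 and 8 h at an adjusted p under 0.05 in a limma model of all 63 arrays with Benjamini-Hochberg adjustment. The 320 higher features (2.58%) had a median change of 0.66 on the log2 scale, and the 214 lower ones (1.72%) of -0.62. Changes of at least 2-fold were seen in 55 higher and 18 lower features (together 0.588%). All 3 arrays at 10 h lay above all 3 at 8 h for 302 of the 320 higher features, against 10.6% of all features, and below for 205 of the 214 lower ones, against 11.1% of all. Over all features 16.6% had an unadjusted p under 0.05, 47.3% a positive and 52.7% a negative change, the median change was -0.01 and the median standard error of a change was 0.14. Whether replicate arrays stem from separate embryo collections is not in the labels. The p-values therefore speak only of scatter among replicate arrays, which may be technical. That scatter was estimated for each feature over all 63 arrays in 21 groups, not from the 6 arrays compared. Standard errors given here rest on the same estimate. With the 6 arrays alone 45 features were called.

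By resemblance to wild type, the 8 h replicate 1 stood apart from the other 8 h arrays. The 8 h replicate 1 most resembled the wild type mean profile at 8.4 h, while the other 8 h arrays did so at 9.6 and 9.55 h, near the 9.75, 9.9 and 9.9 h of the 10 h arrays. The profile ended at 10 h, so no later match was possible. The highest correlations behind these ages ran from 0.657 to 0.790 in the 6 arrays. At 7 h, too, replicate 1 matched an earlier time (7.5 h) than replicates 2 and 3 (9.4 and 9.5 h). Among replicates of the same time, the 10 h replicates 2 and 3 were the least alike of the 6 arrays (r = 0.748). Without the 8 h replicate 1, 79 features were called, 41 higher and 38 lower, and 75 of them were among the 534. Without the 10 h replicate 3 there were 204, and without any other single array of the 6 between 378 and 589. Replicate 1 at both times carried slide numbers of 40 to 45 in its title, and the other replicates numbers of 7 to 15. At 8 and 10 h the run of 40 to 45 held 1 array per time and that of 7 to 15 held 2. Over the 534 features the median size of the change was 0.81 in the run of 40 to 45 and 0.58 in the other. Within the run of 7 to 15, with the other groups kept in the fit for the spread, 97 features were called. The 15 ftz mutant arrays of 6 to 10 h alone gave 334 calls, and 664 with the run as a term. Later counts with the run as a term come from that fit, so they differ from the main ones in arrays as well. Values without the 8 h replicate 1 are given below beside the results they touch.

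**Figure D1:**
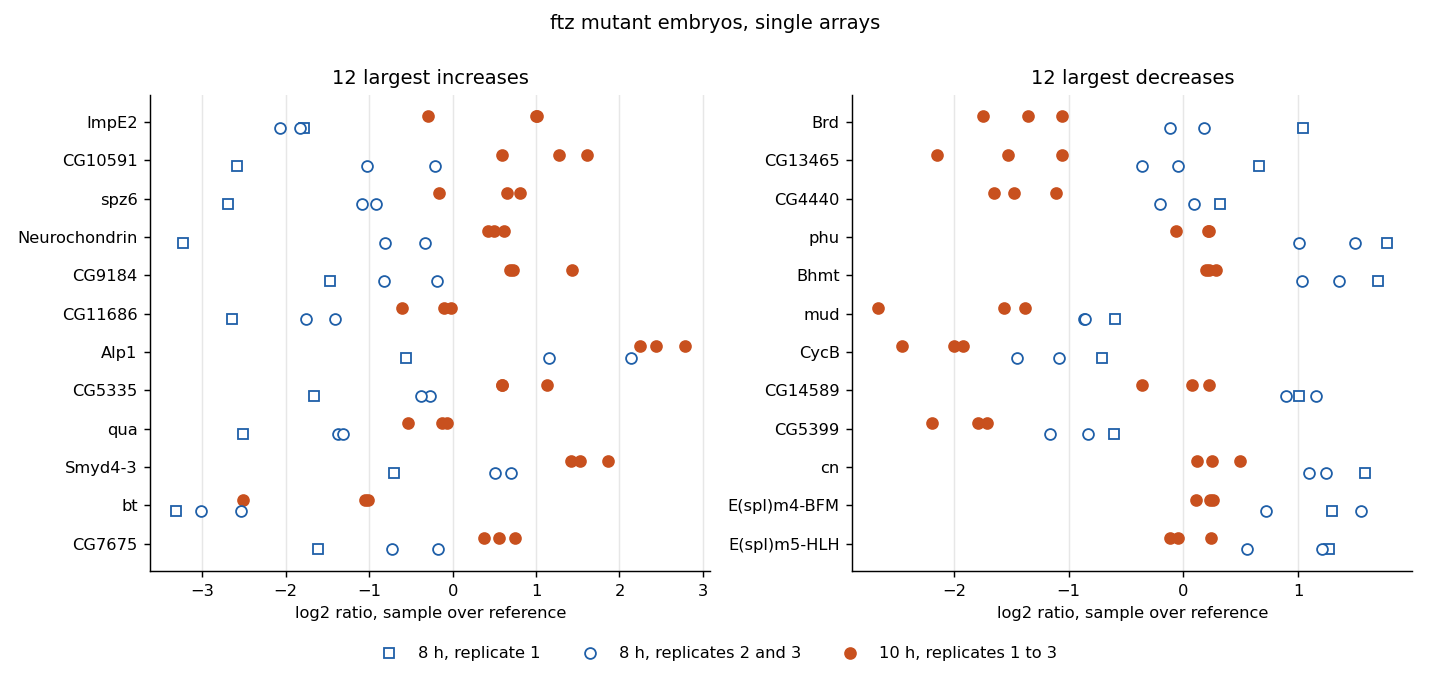
The log2 ratio to the reference is shown for the named genes with the largest changes, 12 higher and 12 lower at 10 h, in each of the 6 ftz mutant arrays. Open blue symbols are 8 h (the square is replicate 1) and filled orange circles are 10 h. In every gene drawn the 3 filled symbols lie on one side of the 3 open ones, which the choice of genes required, and the open square is often the farthest from the filled symbols.

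The largest rise was that of ImpE2, a gene first isolated as ecdysone-inducible in imaginal discs. Its log2 ratios were -1.79, -1.82 and -2.07 at 8 h and -0.29, 1.02 and 1.0 at 10 h. The 8 h arrays lay close together, and the 10 h arrays were all higher, with replicate 1 the lowest of them. The change was 2.47 (SE 0.49, 5.53-fold, adjusted p = 0.00141), and 2.52 with an adjusted p of 0.0262 without the 8 h replicate 1. The uncharacterised gene CG10591 went from -2.58, -0.21 and -1.03 to 0.60, 1.27 and 1.61, a change of 2.43 (SE 0.44, adjusted p = 0.000509). Its 8 h arrays were spread over more than the gap between the groups, with replicate 1 far the lowest, and without that array the change was 1.78 (adjusted p = 0.0431). The ratios of spz6, which encodes a ligand of the Spätzle family, were -2.69, -0.92 and -1.09 at 8 h and -0.17, 0.66 and 0.81 at 10 h. The rise of 2.0 (SE 0.37, adjusted p = 0.000653) fell to 1.44 without the 8 h replicate 1 and missed the threshold (adjusted p = 0.0536).

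The other 9 of the 12 largest rises ran from 1.40 to 1.97. They were Neurochondrin, CG9184, CG11686, the alkaline phosphatase gene Alp1, CG5335, qua, which encodes a villin-like actin-bundling protein, Smyd4-3, bt, which encodes the giant muscle protein projectin, and CG7675. Of all 12, only ImpE2, CG10591 and CG11686 passed without the 8 h replicate 1. For Neurochondrin the change of 1.97 became 1.09 (adjusted p = 0.226), and for Alp1 the change of 1.58 became 0.84 (adjusted p = 0.408).

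Among the falls, Brd had the largest. Brd encodes Bearded, founder of a family of small proteins that inhibit Neuralized and with it the endocytosis of Notch ligands. Its ratios were 1.04, -0.12 and 0.18 at 8 h and -1.06, -1.75 and -1.35 at 10 h. Every 10 h array was below every 8 h array by a wide gap, for a change of -1.76 (SE 0.28, a 3.38-fold fall, adjusted p = 0.000388), or -1.42 without the 8 h replicate 1 (adjusted p = 0.0262). Next came CG13465 at -1.67, CG4440 at -1.48, phu at -1.30, the betaine-homocysteine methyltransferase gene Bhmt at -1.13 and mud at -1.10. The rest were CycB, CG14589, CG5399, cn, which encodes the kynurenine hydroxylase of eye pigment synthesis, and a pair of genes of the Enhancer of split complex. Without the 8 h replicate 1, 7 of the 12 falls still passed, namely Brd, CG13465, CG4440, mud, CG14589, E(spl)m4-BFM and E(spl)m5-HLH.

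Target genes of the Notch pathway were among the genes that fell. The Enhancer of split complex holds direct targets of Notch signalling, among them basic helix-loop-helix repressors that keep cells from becoming neural precursors, and relatives of Bearded. Of 13 measured genes on the Notch list 6 fell and 1 rose, against 1.72% lower and 2.58% higher among all features. This and the other gene lists were chosen with earlier results of these data known, so their counts are descriptions. The median change of the list was -0.59. E(spl)m4-BFM, of the Bearded family, went from 1.29, 0.72 and 1.55 to 0.11, 0.25 and 0.23, a change of -0.99 (SE 0.18, adjusted p = 0.000509). The repressor gene E(spl)m5-HLH went from 1.27, 0.56 and 1.21 to -0.05, 0.24 and -0.12, a change of -0.98 (SE 0.17, adjusted p = 0.000438). For both genes the 10 h arrays lay close to 0 and the 8 h replicate 2 was the nearest to them. E(spl)mdelta-HLH fell from 0.70, 0.61 and 1.13 to -0.08, -0.15 and 0.00, by 0.89 on the log2 scale (SE 0.18, adjusted p = 0.00241). The repressor gene E(spl)m7-HLH fell by 0.81 (adjusted p = 0.00625) and E(spl)malpha-BFM by 0.66 (adjusted p = 0.0283).

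The gene that rose was E(spl)m6-BFM, also of the Bearded family. It rose from 0.32, 0.71 and 0.71 to 0.96, 1.05 and 1.06, by 0.44 (SE 0.13, adjusted p = 0.0441). It lies between E(spl)m5-HLH and E(spl)m7-HLH on the chromosome, both of which fell. The 6 list members that did not pass had changes from -0.59 for Tom and -0.53 for E(spl)m3-HLH to 0.41 for fng, with neur, the gene of the ubiquitin ligase that Bearded proteins inhibit, at -0.23. The list had 4 falls and no rise without the 8 h replicate 1, and the same numbers without the 10 h replicate 3.

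**Figure D2:**
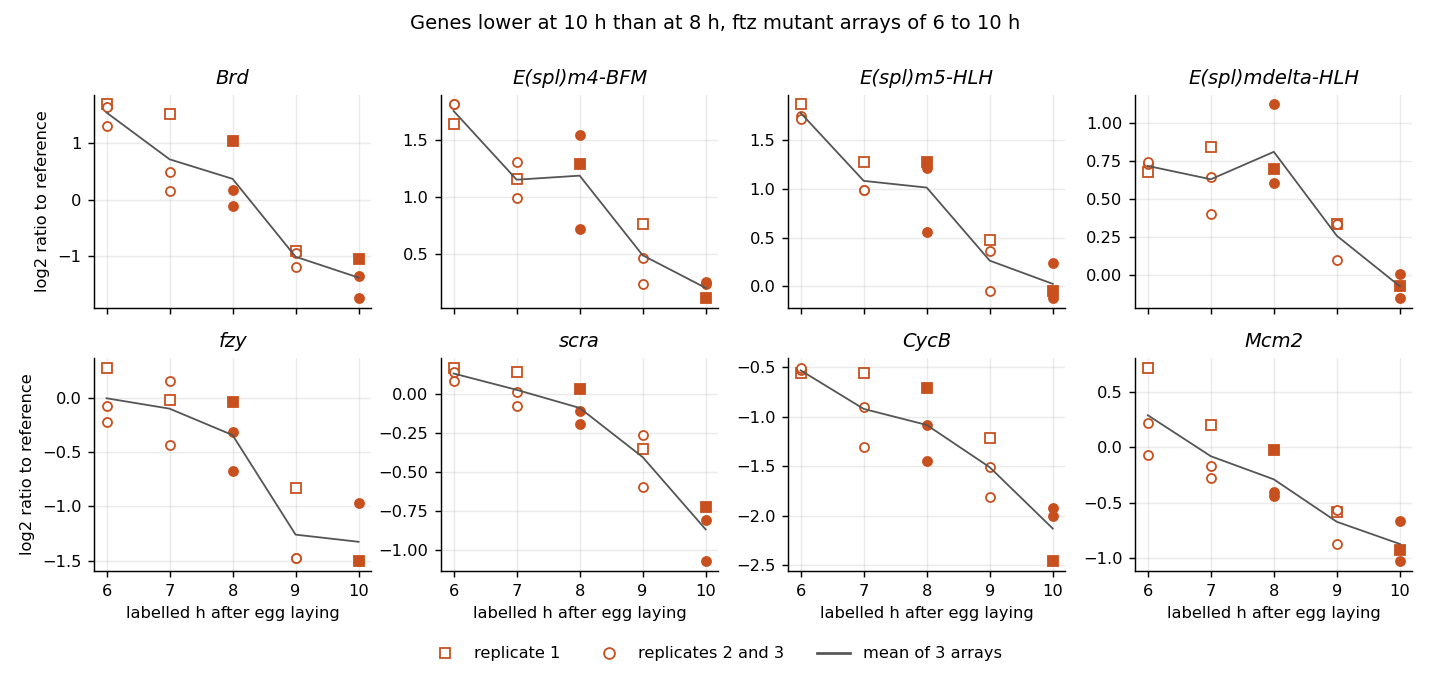
The log2 ratio to the reference is shown against labelled hours after egg laying for 8 genes that fell, in all ftz mutant arrays of 6 to 10 h. Points are single arrays (squares are replicate 1), filled at 8 and 10 h, and the line joins the means of 3 arrays. The 10 h points of Brd lie between -1.75 and -1.06, below all of its 8 h points, and the 9 h means lie between those of 8 and 10 h.

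Most of the measured mitosis genes fell. Of 13 measured mitosis genes 9 fell, against 1.72% of all features, and none rose, with a median change of -0.74. All 13 had an unadjusted p under 0.05, against 16.6% of all features, among them barr, at 0.42 the only one with a positive change. The fizzy gene fzy encodes Cdc20, the activator of the anaphase-promoting complex. It went from -0.04, -0.68 and -0.31 to -1.51, -0.97 and -1.50, a change of -0.98 (SE 0.18, adjusted p = 0.000509). The groups did not overlap, though the 8 h replicate 2 and the 10 h replicate 2 were not far apart. CycB, which encodes the mitotic cyclin B, went from -0.71, -1.45 and -1.09 to -2.46, -2.0 and -1.92, a change of -1.04 (SE 0.30, adjusted p = 0.0349) that missed the threshold without the 8 h replicate 1 (adjusted p = 0.267). The anillin gene scra, needed for cytokinesis, went from 0.04, -0.19 and -0.11 to -0.73, -1.08 and -0.81. Its change of -0.78 (SE 0.16, adjusted p = 0.00249) passed in each of the 6 fits that left out one array. The securin gene pim fell by 0.91 (adjusted p = 0.0198), and missed the threshold without the 8 h replicate 1 (adjusted p = 0.178). It passed in 3 of the 6 omissions.

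Behind these came the separase gene thr at -0.75, the condensin genes SMC2 at -0.77 and glu at -0.73, the spindle kinesin gene Klp61F at -0.74 and Incenp, of the chromosomal passenger complex, at -0.70. Without the 8 h replicate 1, 3 mitosis genes fell, and 5 without the 10 h replicate 3. A longer list of kinetochore, spindle and cytokinesis genes was drawn up after these values had been seen, so its count, too, is a description. Of its 36 measured genes 33 had a negative change, 15 fell and 1 rose, with a median of -0.43. Of all features 52.7% had a negative change, 1.72% fell and 2.58% rose. Falls included Septin5 at -0.88, the kinesin-6 gene sub at -0.84, and the Ndc80 complex genes Spc25 at -0.78 and Nuf2 at -0.69. The single riser was cana, a kinesin gene related to CENP-E, at 1.39 (SE 0.34, adjusted p = 0.0107). Its neighbour and relative cmet fell by 0.45 (adjusted p = 0.0349). The rise of cana did not pass without the 8 h replicate 1, nor without the 10 h replicate 3. The falls of the longer list numbered 3 without the 8 h replicate 1 and 9 without the 10 h replicate 3.

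Fewer DNA replication genes passed the test. All 14 measured had a negative change, against 52.7% of all features. Of the 14, 5 fell, against 1.72% of all features, and none rose, with a median of -0.48. Those that fell were the helicase subunit genes Mcm2 (-0.58) and Mcm6 (-0.48), the polymerase alpha gene PolA1 (-0.57), dup, the gene of the licensing factor Cdt1 (-0.55), and Orc2 of the origin recognition complex (-0.54). In Mcm2 the values of -0.03, -0.40 and -0.44 at 8 h became -0.92, -0.66 and -1.03 at 10 h, with the 8 h replicate 1 the highest of all. None of the 14 passed without the 8 h replicate 1 (Mcm2, PolA1, dup and Orc2 had changes from -0.51 to -0.45), and 1 did without the 10 h replicate 3. Among the genes that did not pass were PCNA, the gene of the sliding clamp, at -0.59 (adjusted p = 0.0567) and CycE, the gene of the S phase cyclin, at -0.48.

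Some genes that orient neuroblast division also fell. Neuroblasts of the embryo divide asymmetrically, passing cell fate determinants to one daughter along a spindle set by apical proteins. The gene mud, whose product ties the spindle to the apical cortex, went from -0.60, -0.87 and -0.86 to -1.38, -2.66 and -1.57, a change of -1.10 (SE 0.20, adjusted p = 0.000543). The 10 h replicate 2 was far the lowest, and without it the change was -0.70 and still passed. The adaptor gene insc, on the neuroblast list, fell from 1.29, 0.64 and 0.94 to 0.38, 0.49 and 0.31, by 0.56 (adjusted p = 0.0181), and it missed the threshold without the 8 h replicate 1 (adjusted p = 0.282). It was the only member of 10 on that list to pass, against 4.3% of all features. A list of 11 asymmetric division genes was chosen after the values were seen. On it mud, insc and pon fell, against 1.72% of all features, none rose and the median was -0.43. Only 1 of the 3 passed without the 8 h replicate 1. The groups of pon overlapped, with the 10 h replicate 1 (0.57) above the 8 h replicate 1 (0.46). Of 13 neuronal differentiation genes none was called by limma and 1 had an unadjusted p under 0.05, with onecut the highest at 0.49 (adjusted p = 0.0809), elav at 0.04 and a median of 0.09. Of 8 glial genes none was called, and none had an unadjusted p under 0.05.

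**Figure D3:**
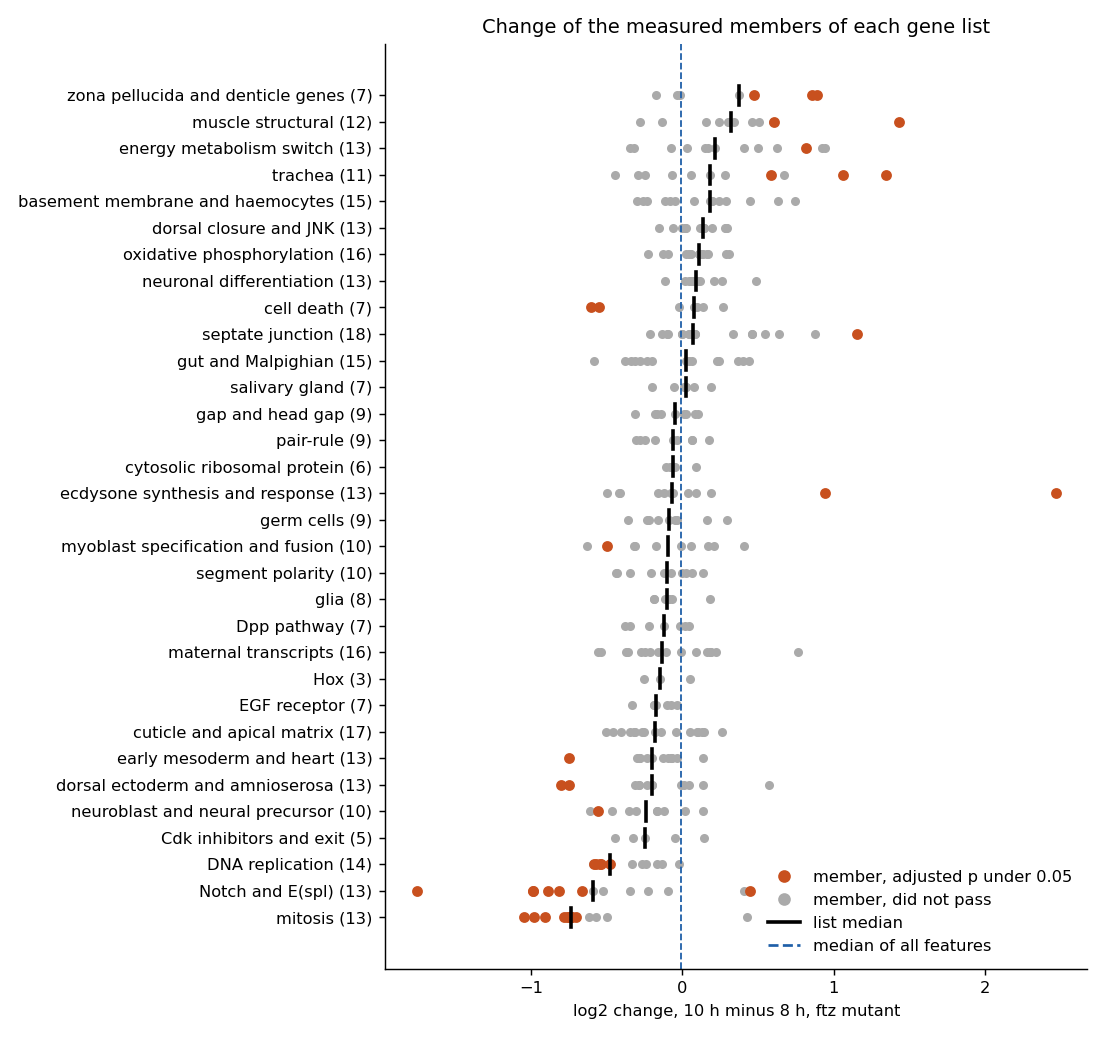
The log2 change from 8 to 10 h in the ftz mutant is shown for each measured member of the gene lists, 1 line per list. Orange points passed the adjusted p threshold of 0.05 and grey points did not, the black tick is the median of the list, the dashed line is the median of all features and the number after each name counts measured members. The 9 orange mitosis points and 6 orange Notch points lie below 0, and ImpE2 stands far out at 2.47.

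Chitin-modifying genes of the trachea rose. The neighbouring genes serp and verm encode secreted chitin deacetylases that limit the length of tracheal tubes. The ratios of serp were -1.82, -0.79 and -0.79 at 8 h and 0.21, 0.06 and 0.38 at 10 h, a change of 1.35 (SE 0.23, adjusted p = 0.000438). Those of verm were -1.55, -0.81 and -0.81 at 8 h and 0.08, -0.12 and 0.07 at 10 h, a change of 1.06 (SE 0.19, adjusted p = 0.000438). In both genes the 8 h replicate 1 was the lowest array by far, and both still passed without it, with changes of 1.01 and 0.82. The gene knk, whose product organises chitin in the tube lumen, rose by 0.59 (adjusted p = 0.0466) but passed in none of the 6 fits that left out one array. With it 3 of 11 tracheal genes rose, against 2.58% of all features, and none fell, for a median of 0.18. The receptor gene btl, which guides tracheal branching earlier, was at -0.25, and the transcription factor gene vvl at 0.18.

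A list of 21 chitin synthesis and modification genes was chosen after the values were seen. It shared serp, verm and knk with the tracheal list. It held 9 that rose, against 2.58% of all features, and none that fell, with a median of 0.59. The others that rose were Cpr11A, a cuticle protein gene, at 1.0, the chitinase genes Cht5 at 0.96 and Cht10 at 0.77, ich at 0.87, obst-B, which encodes a chitin-binding protein, at 0.86 and Gnpnat, of the hexosamine pathway, at 0.78. In Cht5 the values of -1.55, -0.79 and -0.70 became -0.29, 0.00 and 0.13, a change of 0.96 (SE 0.24, adjusted p = 0.0138). The rises numbered 4 without the 8 h replicate 1 and 5 without the 10 h replicate 3. Of structural cuticle genes, none of 17 on the cuticle list was called by limma, 3 had an unadjusted p under 0.05, and the median was -0.18, while 1 fell with the slide run as a term. Cpr11A was the only one called of 68 genes with Cpr, Lcp or Ccp symbols, against 4.3% of all features.

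Of 7 measured genes of zona pellucida proteins and denticle formation 3 rose, against 2.58% of all features, and none fell. Their median change was 0.38. Zona pellucida proteins shape the apical matrix over denticles, the cuticular hooks of the epidermis. The gene tyn went from -0.40, -0.36 and -0.26 to 0.52, 0.38 and 0.65, a change of 0.85 (SE 0.18, adjusted p = 0.00314). Both groups were tight and far apart, and the rise passed in all 6 fits that left out one array. The genes mey and neo rose by 0.89 (adjusted p = 0.00761) and 0.47 (adjusted p = 0.0465). Neither passed without the 8 h replicate 1, nor without the 10 h replicate 3. The groups of mey overlapped, with the 10 h replicate 1 at -0.67 and the 8 h replicate 2 at -0.64. The transcript of ovo, whose locus makes the denticle regulator Shavenbaby, was at -0.04.

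Of 18 septate junction genes only vari passed, against 4.3% of all features, though 5 rose with the slide run as a term. Its product is a scaffold protein of the pleated septate junction, the paracellular seal of epithelia. The ratios rose from -0.77, 0.25 and 0.03 to 1.04, 1.02 and 0.92, by 1.16 (SE 0.23, adjusted p = 0.00133). The 10 h arrays were nearly alike and the 8 h replicate 1 was far below the others, and without it the change was 0.85 (adjusted p = 0.0824). Positive changes that did not pass were those of the smooth septate junction genes mesh (0.88), Ssk (0.64) and hoka (0.55), and of Nrx-IV (0.46) and cora (0.33). The gene bark, whose product sits at tricellular junctions, was on no list and is described with the differences from wild type.

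**Figure D4:**
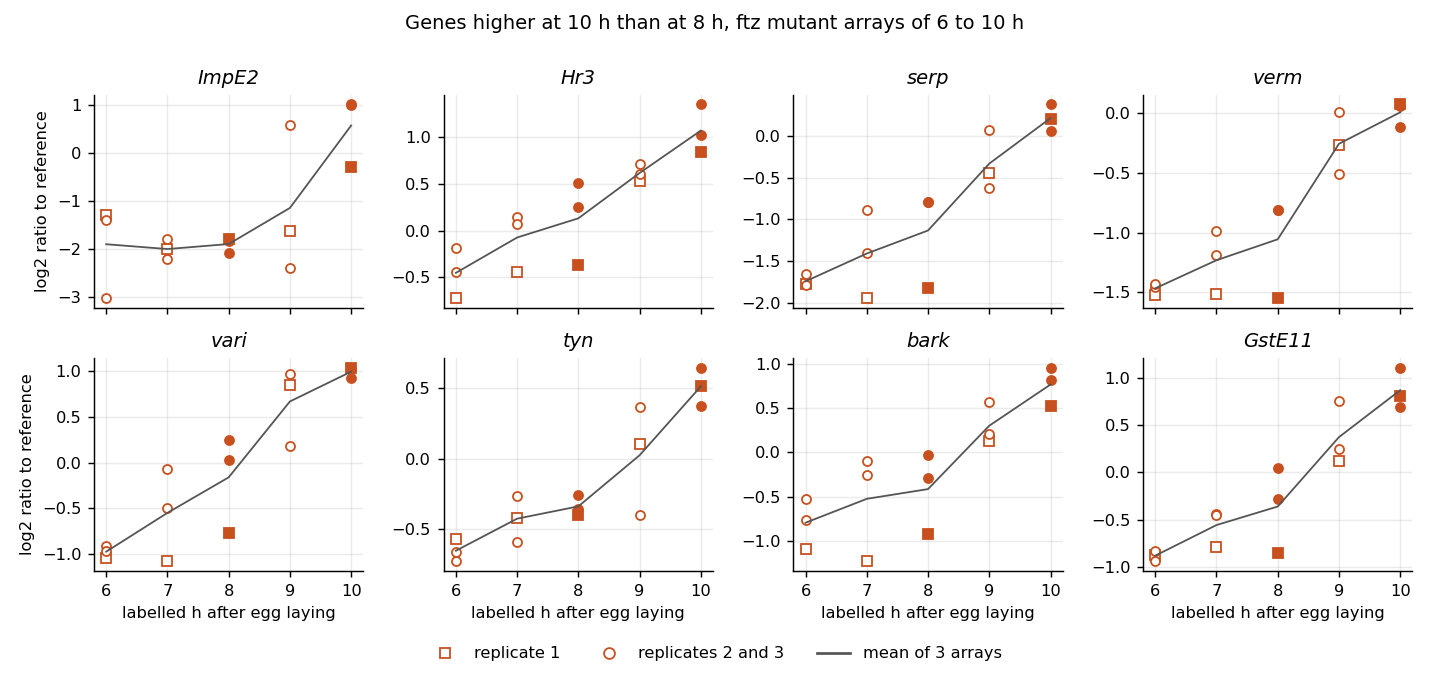
The log2 ratio to the reference is shown against labelled hours after egg laying for 8 genes that rose, in all ftz mutant arrays of 6 to 10 h. Points are single arrays (squares are replicate 1), filled at 8 and 10 h, and the line joins the means of 3 arrays. The mean of ImpE2 stays near -2 up to 8 h, and its single arrays are spread widely at 6 h and at 9 h. The means of the other genes climb over the whole span, and their replicate 1 is often the lowest up to 8 h.

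Of 13 genes of ecdysone synthesis and response 2 rose, against 2.58% of all features, and none fell. Both that rose passed in all 6 fits that left out one array. Ecdysone is the steroid hormone of moulting, and the embryo has its own pulse in mid embryogenesis. Besides ImpE2, the rising gene was Hr3, which encodes a nuclear receptor induced by ecdysone. It went from -0.37, 0.51 and 0.25 to 0.84, 1.02 and 1.35, a change of 0.94 (SE 0.17, adjusted p = 0.000509). The median of the list was -0.07, so these were 2 single genes and not a shift of the list.

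Muscle, mesoderm and dorsal genes moved in small numbers. Of 12 muscle structural genes bt and Msp300 rose, against 2.58% of all features, none fell and the median was 0.32. The ratios of bt were low throughout, at -3.32, -2.54 and -3.02 at 8 h and -2.51, -1.05 and -1.02 at 10 h, and the change of 1.43 (SE 0.41, adjusted p = 0.0318) missed the threshold without the 8 h replicate 1 (adjusted p = 0.218). Msp300, which encodes a nuclear anchor protein of muscle, rose by 0.61 (adjusted p = 0.0438) and missed it too (adjusted p = 0.184). Of 10 genes on the myoblast list 1 fell, against 1.72% of all features, and none rose. It was nau, the gene of the fly relative of MyoD, at -0.50 (adjusted p = 0.0385). Its groups overlapped, and without the 8 h replicate 1 it was at -0.23 (adjusted p = 0.581).

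The tolloid gene tld encodes a metalloprotease that frees Dpp from its inhibitor Sog in the dorsal ectoderm. It fell from 0.46, 0.18 and 0.33 to -0.40, -0.46 and -0.58, by 0.80 (SE 0.14, adjusted p = 0.000438). Both groups were tight and none of the 6 omissions ended the call. On the same list of 13 genes of dorsal ectoderm and amnioserosa the T-box gene Doc1, of amnioserosa and heart, fell by 0.75 (adjusted p = 0.0426, or 0.461 without the 8 h replicate 1). These 2 falls stand against 1.72% of all features, and none rose. Among 7 cell death genes Corp fell by 0.61 (adjusted p = 0.0363) and the caspase gene Dcp-1 by 0.55 (adjusted p = 0.025), against 1.72% of all features. Neither passed without the 8 h replicate 1, and 4 of the 7 had a positive change, with a median of 0.07. Of 13 genes of energy metabolism 1 rose, against 2.58% of all features, none fell, and 3 rose with the slide run as a term. The 1 was fbp, the gene of fructose bisphosphatase, at 0.82 (adjusted p = 0.0177, or 0.213 without the 8 h replicate 1).

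Segmentation genes showed no called change. The ftz transcript itself had ratios of -0.16, -0.26 and -0.01 at 8 h and -0.43, -0.33 and -0.59 at 10 h, a change of -0.31 (SE 0.15, adjusted p = 0.287). In the 3 arrays of ftz mutants at 2 h its mean ratio was 0.67 (SD 0.12), against 0.82 (SD 0.03) in wild type, so the transcript did not mark the genotype, and the labels do not say whether the allele removes it. At 8 and 10 h the wild type means of ftz were -0.21 and -0.43. The change of eve was 0.17 (SE 0.16, adjusted p = 0.671), and that of ftz-f1, which encodes the nuclear receptor partner of Ftz and whose array rows moved in opposite directions, was -0.06 (SE 0.10, adjusted p = 0.831).

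The other 6 pair-rule genes ran from -0.28 for slp2 to 0.06 for hry. Of 10 segment polarity genes, which pattern each segment, none was called by limma and 1 had an unadjusted p under 0.05. Their changes ran from -0.44 for ci, the transcription factor gene of Hedgehog signalling, and -0.43 for the paired-type homeobox gene gsb-n to 0.13 for H15, with en at -0.01 and hh at 0.03. Among the Hox list Dfd was at -0.15, Scr at 0.05 and tsh at -0.25. Gap genes (9), ribosomal protein genes (6), genes of oxidative phosphorylation (16), germ cell genes (9) and salivary gland genes (7) had no call and no unadjusted p under 0.05. Maternal transcripts (16), EGF receptor genes (7), Dpp pathway genes (7), dorsal closure genes (13), basement membrane and haemocyte genes (15), gut genes (15) and Cdk inhibitor genes (5) had no call either, and between 1 and 3 members each with an unadjusted p under 0.05. With the slide run as a term, however, 2 gut genes and 1 of the basement membrane and haemocyte list rose.

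The 9 h arrays of the ftz mutant, which took no part in the contrast, lay on the way. Their mean fell between those of 8 and 10 h for 306 of the 320 higher features and 210 of the 214 lower ones, against 48.1% of all features. By 9 h the median feature had gone 61.9% of the way among those higher at 10 h and 57.5% among those lower. The called features were chosen for a wide gap between the 8 and 10 h means, which a 9 h mean enters more easily. The 48.1% is therefore no like yardstick, and the shares reached at 9 h use the same chosen means. From 6 to 8 h, 82.5% of the higher and 75.7% of the lower features had already moved in the same direction, against 53.7% of all, with median changes of 0.22 and -0.20. The 8 h mean enters both the step from 6 to 8 h and that from 8 to 10 h, with opposite sign.

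Wild type and eve mutant embryos were measured at the same hours on other arrays. From 8 to 10 h wild type had 458 called features (3.69%), 261 higher (2.1%) and 197 lower (1.59%), and the eve mutant 125 (1.01%), 85 higher (0.684%) and 40 lower (0.322%). The ftz mutant had 534, but 79 without its 8 h replicate 1, so the order of these counts depends on that array. The shared features and signs below come from the fit that includes it. The eve mutant arrays most resembled 9.5, 9.55 and 9.5 h at 8 h and 9.7, 9.65 and 9.8 h at 10 h. The part of these ages in the counts was not tested. The ftz mutant and wild type shared 48 higher features, 15% of the ftz mutant's and 18.4% of wild type's, and 39 lower ones, 18.2% and 19.8%. With the eve mutant the shared features were 49 higher, 15.3% of the ftz mutant's and 57.6% of the eve mutant's, and 25 lower, 11.7% and 62.5%. Both mutants and wild type shared 17 higher and 7 lower ones. The sign of the change was the same in wild type for 77.5% of the higher and 84.1% of the lower features called in the ftz mutant, and in the eve mutant for 90.3% and 85.5%, against 58.7% and 62.1% of all features. Over all features the changes of the ftz mutant correlated at r = 0.382 with those of wild type and 0.540 with those of the eve mutant, across features that are not independent.

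The cell division and Notch lists had negative medians in the other genotypes as well. For mitosis the median was -0.39 in wild type, with 5 falls, and -0.43 in the eve mutant, with 3 falls. For the Notch list it was -0.23 in wild type, with 3 falls and 1 rise, and -0.49 in the eve mutant, with 4 falls. For DNA replication it was -0.34 with 3 falls and -0.21 with none. CycB of the mitosis list changed by 0.35 in wild type and by -0.35 in the eve mutant. Other lists were less alike, with medians in the ftz mutant, wild type and eve mutant in this order. They were 0.59, 0.01 and 0.13 for chitin genes, -0.43, -0.02 and -0.21 for asymmetric division, and 0.32, -0.02 and 0.05 for muscle genes. All medians of the ftz mutant here include its 8 h replicate 1. The chitin and asymmetric division lists were chosen after the values were seen. The differences between genotypes for these lists were tested only gene by gene, as follows.

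**Figure D5:**
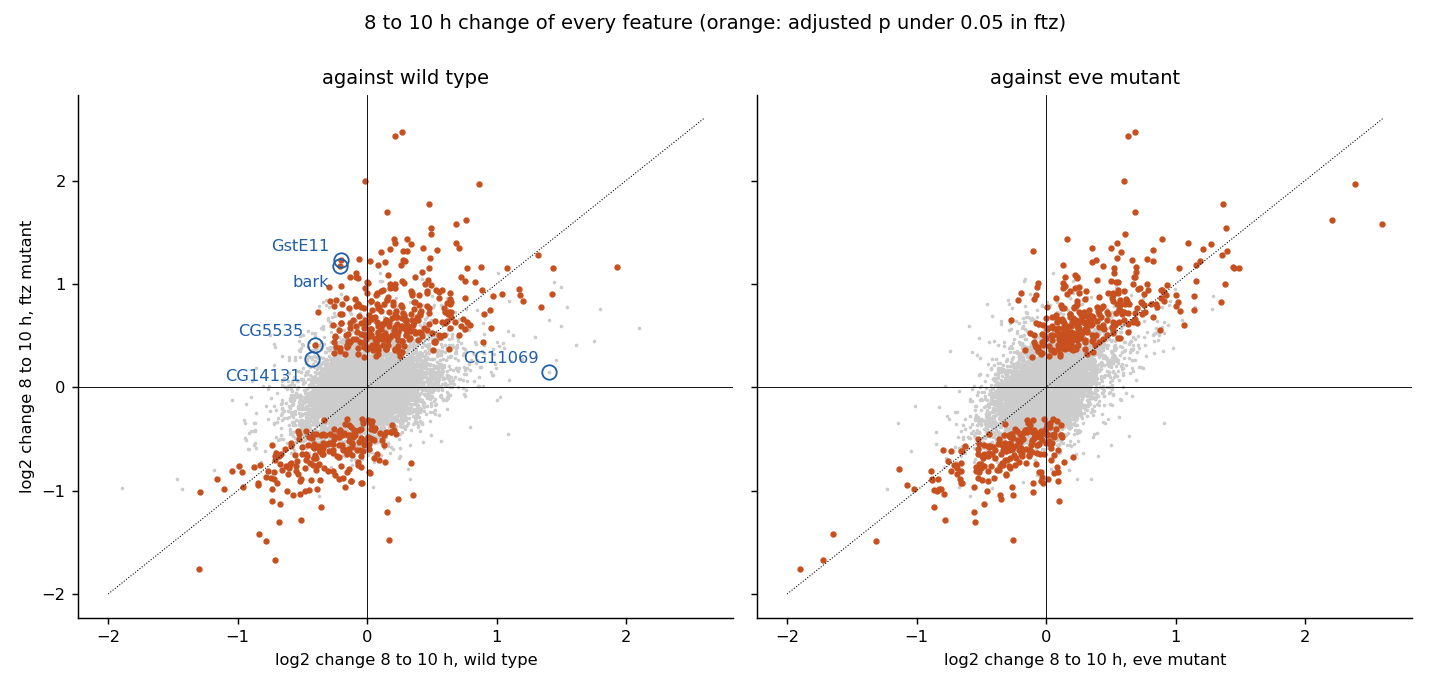
The log2 change from 8 to 10 h in the ftz mutant (vertical axis) is shown against that in wild type and in the eve mutant (horizontal axis) for every feature. Coloured points were called in the ftz mutant, and the 5 ringed points are named genes that passed the test of the difference from the wild type change. The dotted line marks equal change. Most coloured points lie in the quadrants of equal sign, and bark and GstE11 lie high on the left of the wild type panel.

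The change in the ftz mutant differed from that in wild type for 6 features (0.0483%), 5 with a higher change in the ftz mutant (0.0402%) and 1 with a lower one (0.00805%), in the same limma model. At an unadjusted p under 0.05 there were 1316 (10.6%), and the median standard error of such a difference was 0.20. The gene bark went from -0.92, -0.03 and -0.29 to 0.52, 0.82 and 0.95 in the ftz mutant, a change of 1.18 (SE 0.20). In wild type it stood at -0.05, 0.02 and -0.43 at 8 h and -0.73, -0.08 and -0.29 at 10 h, a change of -0.21. The ftz mutant arrays at 10 h were above every wild type array of either time, and the changes differed by 1.39 (SE 0.29, adjusted p = 0.0334). GstE11, of the glutathione transferase family, went from -0.85, 0.05 and -0.28 to 0.81, 0.69 and 1.11 in the ftz mutant and from -1.26, -0.66 and -0.89 to -1.40, -0.46 and -1.57 in wild type. Its changes of 1.23 and -0.21 differed by 1.43 (SE 0.30, adjusted p = 0.0334). In the eve mutant bark changed by 0.44 and GstE11 by 0.38, and neither difference from the ftz mutant passed.

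The other 4 features were CG5535 (0.41 in the ftz mutant and -0.41 in wild type), CG14131 (0.27 and -0.43), CG11069 (0.15 and 1.41) and an array row without a gene name here. CG5535 was the only feature called in opposite directions in the ftz mutant and wild type, and its call in the ftz mutant (adjusted p = 0.0291) was lost without the 8 h replicate 1 (adjusted p = 0.101) and without the 10 h replicate 3 (adjusted p = 0.241), and held in 3 of the 6 omissions. The number that differed was 0 without the ftz 8 h replicate 1, the ftz 8 h replicate 3, the ftz 10 h replicate 3, the wild type 8 h replicate 2 or the wild type 10 h replicate 1, and 97 without the wild type 10 h replicate 2. With the replicate number as a block 1 feature differed, and it was none of these 6. Set against the other wild type arrays, those of 8 h most resembled 7.05, 8.5 and 7.3 h and those of 10 h 9.55, 9.4 and 9.45 h. The part of the arrays' apparent ages in these differences was not tested. Between the ftz and eve mutants no difference of changes passed (0%), with 658 features at an unadjusted p under 0.05 (5.3%) and a median standard error of 0.20.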

How the data were processed

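RNA of whole embryos, extracted with Trizol per the labels' protocols, was compared with a common reference on 2-colour arrays. The authors deposited log2 ratios in a single table with a column for every array. The submitters' processing notes name limma without a version, and how background was corrected or rows filtered is not given in the sources used. The deposited log2 values share 1 distribution, equal to within 0.000784 once sorted, so they came quantile normalized and were used unchanged. Of 20000 rows, 6772 were blank. Direction was read from wild type lists between 2 and 10 h: the maternal median went from -0.44 to -1.03 and the muscle median from -1.62 to -1.23.

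Rows took their symbols from the platform annotation, brought up to date by gene ID through a RefSeq table (Release 6), which also gave gene order; 10096 rows had 1 symbol, 220 several and 2912 none. Where a gene had more than 1 row (696 genes), its rows were averaged within each array. A mean was fitted for each of 21 groups of 3 arrays (42 residual degrees of freedom, limma 3.58.1, R 4.3.3), followed by empirical Bayes moderation and 2-sided moderated tests with Benjamini-Hochberg adjustment over 12424 features; adjusted p-values come from this model. A called feature has an adjusted p under 0.05. Apparent age is the point of the interpolated wild type mean profile of 6 to 10 h with the highest correlation. The pipeline was tested on simulated data.

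The comparison and the gene lists (32 lists, 352 of 531 symbols measured) were chosen with earlier results of these data known, and 4 further lists and the symbol families after the values were seen. Named genes were ftz, eve and ftz-f1, the 12 largest called changes in each direction with no overlap of groups, up to 4 called members of each list, all segment polarity, pair-rule and Hox members, and the called differences from wild type. Other genes named were picked after their values were seen. Array number limits the precision.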

Additional observations from a re-analysis of the deposited data

Results flagged for a closer look

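Of all features, 6 changed differently between 8 and 10 h in the ftz mutant and in wild type by the test of the difference itself, with an adjusted p of 0.0334 each in limma. The difference (ftz mutant minus wild type, log2) was 1.43 for GstE11, 1.39 for bark, 0.82 for CG5535, 0.70 for CG14131, 0.74 for an array row without a gene name here and -1.26 for CG11069. For CG11069 the ftz mutant arrays were at 0.98, 1.23 and 1.0 at 8 h and 1.46, 1.0 and 1.19 at 10 h, while wild type went from 0.02, -0.13 and 0.43 to 1.5, 1.86 and 1.19; the genotypes were apart at 8 h and overlapped at 10 h. For CG5535 wild type fell from -0.64, -0.73 and -0.90 to -1.11, -1.05 and -1.33, and the ftz mutant went from -0.63, -0.57 and -0.86 to -0.37, -0.39 and -0.07. For CG14131 the ftz mutant change of 0.27 was small, and the wild type fell from -0.10, -0.10 and -0.05 to -0.71, -0.36 and -0.47. Under 18 other settings, 12 of them leaving out one array, the 5 named genes kept their sign and passed in 7 (bark) to 11 (CG14131), so each call depended on single arrays.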

How the results depend on the processing

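The count of 534 called features was 336 with the 45 arrays of 6 to 10 h, 334 with the 15 ftz mutant arrays of those hours, 45 with the 6 compared arrays alone, 53 against a minimum change of 1.2-fold, and 129 and 97 within the slide runs of 40 to 45 and 7 to 15. The run of 40 to 45 held 1 array per time, so no spread within it could be estimated. Calls there rest on single arrays and on the spread of the other groups kept in the fit. Leaving out one array gave 79 to 589. With rows not averaged, trended and robust moderation, array weights or median and spread scaling the count stayed within 1.5 times, between 528 and 797. Same-numbered replicates of 8 and 10 h deviated from their group means with correlations of 0.115, -0.0314 and 0.109. The numbers were therefore not taken to pair samples, though with 3 arrays per group this check is weak. The fit with the replicate block (15 ftz mutant arrays) called 665, against 334 in the same arrays without the block. Of the 665, 381 were among the 534, and 43 of 51 named called genes passed in the block fit. Under the block the septate junction list had 5 rises, energy metabolism 3, gut 2 and basement membrane 1, the cuticle list 2 falls and DNA replication 8, juvenile hormone genes 2 rises, and muscle genes 1. The 6 differences from wild type became 2 with 45 arrays, 0 with array weights, 1 with the replicate block (none of the 6) and 0 to 97 with one array left out; the 0 differences from the eve mutant became 1 with the block and 0 to 1 with one array left out. Of the 51 named called genes 20 passed whichever array of the 6 was left out. An exact permutation test of 3 arrays against 3 cannot go below 0.1, and the cause of these shifts was not tested.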

Other observations

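Genes tied to juvenile hormone, the sesquiterpenoid that keeps insect larvae from metamorphosis, held 4 rises and no fall among 16 measured. Of all features 2.58% rose, and the median change of the list was 0.00. This list and the families below were put together after the values were seen. The gene jhamt, which encodes the methyltransferase of the last steps of juvenile hormone synthesis, went from 0.11, 1.28 and 0.76 at 8 h to 2.24, 1.97 and 1.91 at 10 h, a change of 1.32 (SE 0.20, adjusted p = 0.000238 in limma). Kr-h1, the transcription factor gene of the hormone response, rose by 1.0 (adjusted p = 0.00922), Jhbp2 by 0.97 (adjusted p = 0.0247) and JhI-26 by 0.94 (adjusted p = 0.0186). The receptor gene Met was at -0.52 and did not pass. Without the 8 h replicate 1 a single gene of this list passed, and likewise without the 10 h replicate 3; with the slide run as a term 2 did.

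Glutathione transferase genes, which act in detoxification, included 6 rises and no fall among 27, against 2.58% of all features higher. Their median was 0.30, and the 6 were GstE11 (1.23), GstD3 (0.94), GstE1 (0.90), GstT4 (0.73), GstE12 (0.55) and GstD4 (0.47). One of them passed without the 8 h replicate 1. Of 18 nucleoporin genes 17 had a negative change, against 52.7% of all features, with a median of -0.29; none was called by limma and 8 had an unadjusted p under 0.05, against 16.6% of all features. Of 25 tRNA synthetase genes 22 had a positive change, against 47.3% of all features, and 1 rose, a share near the 2.58% of all features.

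Of 9277 measured genes with a known place 417 were called, and 24 neighbouring pairs had both genes called. Of these pairs 13 moved in one direction. Whether 24 pairs exceed a random placement of the called genes was not tested, and the pairs named here were picked. Besides serp with verm and GstD3 with GstD4, the centrosome gene spd-2 and the splicing regulator gene tra of sex determination both fell (-0.67 and -0.60). Pairs that moved apart included Doc1 (-0.75) beside the arginine kinase gene Argk1 (1.16) and CAH7 (-0.80) beside knk (0.59).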
